A study of Mus musculus with 12 samples.

Results

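The genes followed here are the platelet-derived growth factor (PDGF) ligands and receptors in mouse MC38 tumors. They were the 4 ligand genes Pdgfa, Pdgfb, Pdgfc and Pdgfd, the 2 receptor kinase genes Pdgfra and Pdgfrb, and Pdgfrl, which encodes a receptor-like protein without a kinase domain. Members were taken by gene symbol, a rule that uses no measured value, although the family was picked with earlier results of these data known. All 7 were among the 18211 genes of the expression table, and all 7 were among the 13563 that passed the filter on low counts. MC38 is a mouse colorectal adenocarcinoma line, and its cells were grown under the skin of female C57BL/6 mice that were 5 weeks old. Host and tumor cells are both mouse, so their reads cannot be separated. Groups were formed on day 7. CK mice were given vehicle, and PB-020 mice an oral dose of 50 mg/kg of the IGF-1R inhibitor PB-020 each day. Anti-PD-1 mice were injected with 200 μg of a PD-1 blocking antibody on days 9, 12, 15 and 18. PB-020/anti-PD-1 mice received both, at the same doses and on the same days. All 12 tumors share the strain and the tumor line, and the labels name no transgene or deletion. Each group had 3 tumors, numbered in the labels, and the labels do not say that each tumor came from its own mouse, so p-values measure the spread between these tumors.

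PDGF ligands act as dimers that join a pair of receptor chains and switch on the kinase of each. PDGF-A and PDGF-C bind the α receptor (Pdgfra), PDGF-D binds the β receptor (Pdgfrb), and PDGF-B binds both. PDGF-C and PDGF-D are secreted in a latent form and need a protease to cut off a domain before they bind. Activated receptors recruit PI3K, phospholipase C gamma, Src kinases and the Ras/MAPK adaptors. In tumors, fibroblasts carry both receptors, pericytes carry the β receptor, and endothelial cells secrete PDGF-B, which draws pericytes to vessels.

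Expected counts of the 12 libraries summed to between 16545394 and 17217035, so depth differed little. In the libraries of the labelled colorectal tumors the markers of the epithelial list were near 0 or low. Epcam reached at most 0.890 TPM, Krt8 0.250 and Krt18 0.270, and Krt18 was at 0 in all 3 CK tumors. Cdh1, from 2.85 to 6.93 TPM, was the 1 epithelial marker of the 8 in the table that passed the filter. Krt14, a keratin counted below with the skin markers, was at 140.0 to 361 TPM. Of the same skin list, Krt5 reached at most 11.2 TPM and Krt15 4.90, and the cells that held Krt14 were not identified. Anti-PD-1 tumor 1 stood apart. Its 9 skeletal muscle markers summed to 1152 TPM, against 18.7 to 109 TPM in the other 11 tumors.

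In CK tumors the level order, in TPM (transcript share scaled to a fixed library total and corrected for gene length), ran from Pdgfrb at 62.2 ± 6.47 (SD, n = 3) and Pdgfa at 61.9 ± 10.2, through Pdgfra at 25.2 ± 3.36 and Pdgfb at 16.6 ± 0.825, to Pdgfc at 6.76 ± 0.0814, Pdgfrl at 3.55 ± 1.19 and Pdgfd at 1.70 ± 0.486. Pdgfrb and Pdgfa could not be ordered in CK, since Pdgfrb was the higher in only 1 of the 3 tumors. Each of the other neighbours in the order was separated in all 3 tumors. The order was different in the combination tumors. Pdgfa led at 77.9 ± 7.21 TPM (SD, n = 3), Pdgfrb followed at 39.1 ± 3.80, and Pdgfb at 26.5 ± 3.28 lay above Pdgfra at 12.6 ± 0.948. In CK the reverse held for that last pair, with Pdgfra above Pdgfb in all 3 tumors. Pdgfb was above Pdgfra in all 3 anti-PD-1 tumors as well. The depth behind these levels was uneven, with 1863 to 3237 expected counts per tumor for Pdgfrb but 33 to 113 for Pdgfd and 29 to 252 for Pdgfrl.

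**Figure D1:**
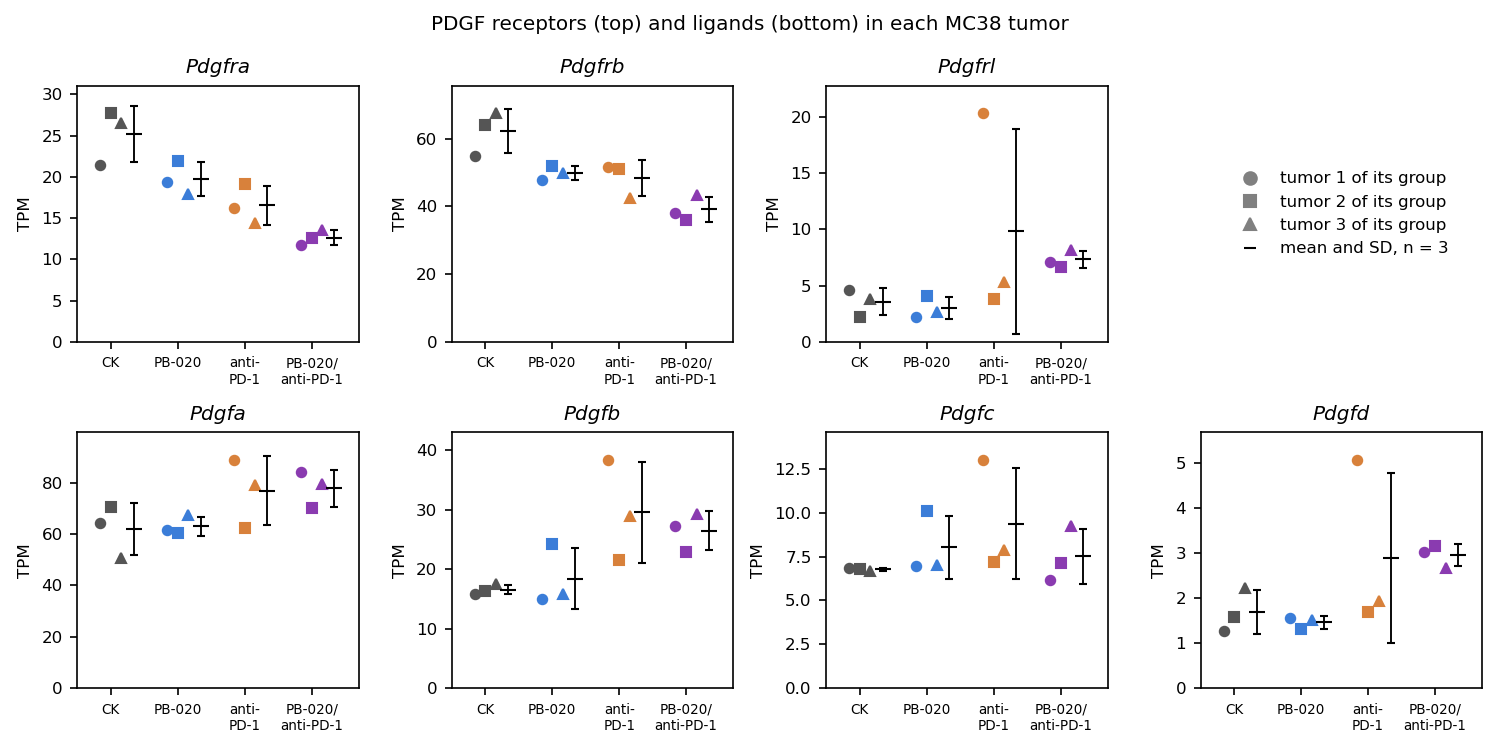
Level of each PDGF receptor and ligand gene in TPM (vertical axes, each starting at 0) in the 12 tumors, by group (horizontal axes). Each symbol is 1 tumor, and the black bar is the mean with its SD over 3 tumors. Pdgfra and Pdgfrb step down from CK to the combination tumors, and anti-PD-1 tumor 1 is the highest tumor for all 4 ligands and for Pdgfrl.

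Positions are 1-based RefSeq positions on GRCm38.p6. Pdgfra is at chr5:75151322-75198206 on the plus strand, 377 kilobases from Kit, a related kinase. Pdgfa lies at chr5:138976014-139000792 on the minus strand, Pdgfb at chr15:79995865-80024614 on the minus strand, Pdgfc at chr3:81036416-81214040, Pdgfd at chr9:6168363-6534284 and Pdgfrl at chr8:40926233-40990782, the last 3 on the plus strand. In the GENCODE annotation, antisense genes overlap Pdgfa, Pdgfb, Pdgfc and Pdgfra, and Ddi1 lies on the other strand within Pdgfd. Whether the libraries kept the strand is not given in the sources used here, so reads of such pairs may not be separable.

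RefSeq promoter windows (250 bases before and 50 after a transcript's start, build GRCm38.p6) were at hand for 4 members, Pdgfa with 2 windows, Pdgfc, Pdgfd and Pdgfra. Pdgfb, Pdgfrb and Pdgfrl were not matched. Printed 5′ to 3′ on the gene's strand are the windows of the matched members that changed on average with anti-PD-1, with motif matches in capitals.
Pdgfra, chr5:75152001-75152300, plus strand: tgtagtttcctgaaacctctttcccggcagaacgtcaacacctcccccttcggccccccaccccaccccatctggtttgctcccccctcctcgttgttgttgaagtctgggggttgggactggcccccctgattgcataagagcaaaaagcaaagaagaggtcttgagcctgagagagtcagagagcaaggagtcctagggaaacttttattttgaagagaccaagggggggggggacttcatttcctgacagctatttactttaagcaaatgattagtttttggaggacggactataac
Pdgfa, chr5:138994232-138994531, minus strand: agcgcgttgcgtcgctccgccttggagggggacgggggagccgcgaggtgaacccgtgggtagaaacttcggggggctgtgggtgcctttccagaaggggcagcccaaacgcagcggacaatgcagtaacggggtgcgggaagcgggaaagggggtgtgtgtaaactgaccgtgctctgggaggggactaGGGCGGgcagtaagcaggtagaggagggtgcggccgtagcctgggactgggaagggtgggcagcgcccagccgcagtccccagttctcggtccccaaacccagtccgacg
Pdgfa, chr5:138994895-138995194, minus strand: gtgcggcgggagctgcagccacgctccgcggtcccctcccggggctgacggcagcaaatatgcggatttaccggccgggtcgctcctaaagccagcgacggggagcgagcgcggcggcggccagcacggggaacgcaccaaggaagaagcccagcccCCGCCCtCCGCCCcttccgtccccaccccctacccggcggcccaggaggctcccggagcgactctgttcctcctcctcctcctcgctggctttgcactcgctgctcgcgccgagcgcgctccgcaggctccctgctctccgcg
Pdgfd, chr9:6168236-6168535, plus strand: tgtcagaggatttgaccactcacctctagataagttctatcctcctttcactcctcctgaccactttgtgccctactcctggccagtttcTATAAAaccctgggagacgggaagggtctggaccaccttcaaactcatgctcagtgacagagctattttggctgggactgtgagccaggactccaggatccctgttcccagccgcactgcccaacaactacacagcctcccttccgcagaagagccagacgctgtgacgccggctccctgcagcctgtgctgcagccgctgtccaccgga

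The 5 motifs searched on both strands were the TATA box TATAAA (in 13.6% of all 32851 windows), the GC box GGGCGG (35.7%), the CCAAT box CCAAT (37.4%), the STAT-binding GAS element TTCNNNGAA (8.30%) and the AP-1 site TGANTCA (7.81%). The Pdgfra window, the 1 receptor window at hand, held none of the 5 and had a GC content of 51.0%, above that of 43.0% of all windows. This window and both Pdgfa windows lie inside the gene spans given above, so each belongs to a transcript that starts within its gene. Both Pdgfa windows held GC boxes, 1 starting at base −60 from the transcript's start in the first and 2, which do not overlap, at −93 and −86 in the second. Their GC contents were 67.0% and 73.3%. The Pdgfd window held 1 TATA box at −160 and had a GC content of 56.7%. The span of Pdgfd given above starts at chr9:6168363, inside this window, and the TATA box lies before that base. Its −160 counts from a transcript start further within the gene. The Pdgfc window (chr3:81036166-81036465, GC content 55.0%) held none of the 5. No GAS or AP-1 letters were in any of the 5 windows.

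Both receptor kinase genes were lower in anti-PD-1 tumors than in CK tumors, and lowest in the combination tumors. Pdgfra, whose product binds PDGF-A, PDGF-B and PDGF-C, stood at 21.4, 27.7 and 26.5 TPM in CK tumors 1 to 3 and at 19.4, 21.9 and 17.9 TPM in the PB-020 tumors. It stood at 16.2, 19.1 and 14.4 TPM in the anti-PD-1 tumors and at 11.7, 12.6 and 13.6 TPM in the combination tumors. Every anti-PD-1 tumor lay below every CK tumor, and every combination tumor below all 9 others. Against CK the log2 change of Pdgfra was −0.91 (SE 0.11, adjusted p = 0.0012) in the combination group, which is 0.533 of the CK level. With anti-PD-1 alone the log2 change was −0.59 (SE 0.11, adjusted p = 0.01). With PB-020 alone it was −0.27 (SE 0.11, unadjusted p = 0.028, adjusted p = 0.87), and the PB-020 and CK tumors overlapped.

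Pdgfrb (chr18:61045127-61085067, 20.5 kilobases from the related kinase gene Csf1r) encodes the receptor for PDGF-B and PDGF-D and is the one that pericytes carry. Its changes were smaller. It stood at 55.0, 64.2 and 67.5 TPM in CK tumors and 47.7, 52.0 and 49.8 TPM in PB-020 tumors. Tumors given anti-PD-1 had 51.8, 51.2 and 42.4 TPM, and combination tumors 38.2, 35.9 and 43.3 TPM. All 9 treated tumors were below the lowest CK tumor, and the combination and anti-PD-1 tumors overlapped at 42.4 to 43.3 TPM. The log2 change of Pdgfrb was −0.57 (SE 0.08, adjusted p = 0.0018) in the combination group, −0.35 (SE 0.08, adjusted p = 0.019) with anti-PD-1 alone and −0.23 (SE 0.08, unadjusted p = 0.011, adjusted p = 0.87) with PB-020 alone. The 3 comparisons share the 3 CK tumors. Summed over both kinases, the receptor level was 87.4 ± 9.63 TPM (SD, n = 3) in CK tumors, 69.6 ± 3.75 with PB-020, 65.1 ± 7.25 with anti-PD-1 and 51.8 ± 4.53 with both.

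Pdgfra changed more than Pdgfrb. The ratio of Pdgfrb to Pdgfra within a tumor ran from 2.32 to 2.79 (median 2.50) in the 6 tumors without the antibody and from 2.68 to 3.25 (median 3.06) in the 6 with it. The log2 difference was 0.27 (exact permutation p = 0.005, adjusted over 5 ratios 0.0063), and it was 0.24 among vehicle tumors and 0.29 among PB-020 tumors. In these 2-sided tests labels were exchanged only among tumors of the same PB-020 status, which gives 400 arrangements and a smallest p of 0.005. Pdgfrb made up 71.2% ± 1.18 (SD, n = 3) of the receptor transcripts in CK and 75.5% ± 1.29 in the combination tumors.

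With 3 called members each, the comparison of anti-PD-1 with CK and that of the combination with CK called Pdgfra and Pdgfrb as lowered and Pdgfb as raised. Over all 13563 genes tested, edgeR called 8.26% with anti-PD-1 (4.18% raised and 4.08% lowered) and 17.9% with the combination (8.35% raised and 9.60% lowered). With PB-020 alone 0 of the 7 were called, and edgeR called 0% of all genes there, although 741 of them had an unadjusted p under 0.05 and DESeq2 called 6, none of them a member. Against PB-020 alone, the combination lowered Pdgfra by a log2 change of −0.64 (SE 0.11, adjusted p = 0.02) and Pdgfrb by −0.35 (SE 0.08, adjusted p = 0.035), 2 of 7 members where 3.35% of all genes were called (1.25% raised and 2.11% lowered). The Pdgfra call was lost without PB-020 tumor 1 or 3 or combination tumor 1 or 2, at −0.69 to −0.58 (adjusted p 0.073 to 0.11). Those fits called only 0 to 11 of all genes, against 455 with all tumors. The Pdgfrb call was lost without any 1 PB-020 or combination tumor, at −0.40 to −0.32 (adjusted p up to 0.14). Without PB-020 tumor 2 or combination tumor 3, 397 and 105 of all genes were called. Against anti-PD-1 alone, Pdgfra was lower in every combination tumor at −0.31 (SE 0.11) and Pdgfrb was at −0.22 (SE 0.08), with unadjusted p of 0.015 and 0.013 and adjusted p of 0.66 for both. No gene was called in that comparison (0%), where 984 had an unadjusted p under 0.05 and DESeq2 called 1. The tumors did not overlap there for 1 of 7 members (Pdgfra) and for 12.3% of all genes.

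On the log2 scale the combination's change in each receptor was near the sum of the single changes. For Pdgfra the single changes summed to −0.87 and the combination was at −0.91, an interaction of −0.04 (SE 0.16, adjusted p = 1). For Pdgfrb the sum was −0.58, the combination −0.57 and the interaction 0.00 (SE 0.11, adjusted p = 1). No interaction was called for any of the 7 members or any gene (0%), where 310 genes, none a member, had an unadjusted p under 0.05 and DESeq2 also called 0. Averaged over both PB-020 states, anti-PD-1 changed Pdgfra by −0.62 (SE 0.08, adjusted p = 0.00058) and Pdgfrb by −0.35 (SE 0.05, adjusted p = 0.0013). Averaged over both antibody states, PB-020 gave −0.29 (SE 0.08, unadjusted p = 0.0025) for Pdgfra and −0.22 (SE 0.05, unadjusted p = 0.0012) for Pdgfrb, with adjusted p of 0.31 for both. That comparison called 0% of all genes in edgeR, where 1475 had an unadjusted p under 0.05. DESeq2 called 40 genes there, Pdgfrb among them (adjusted p = 0.04).

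The receptor calls in the combination group against CK stayed under all 8 alternatives and with each of the 12 tumors left out, which gave −0.99 to −0.85 for Pdgfra and −0.63 to −0.51 for Pdgfrb. With anti-PD-1 alone the Pdgfra call was lost without CK tumor 2 (−0.54, adjusted p = 0.056) and in a fit of the 6 tumors of these groups alone (−0.59, adjusted p = 0.062). The Pdgfrb call was lost without CK tumor 2 (adjusted p = 0.076), CK tumor 3 (0.058) or anti-PD-1 tumor 3 (0.079), and in that fit of 6 tumors (0.078).

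**Figure D2:**
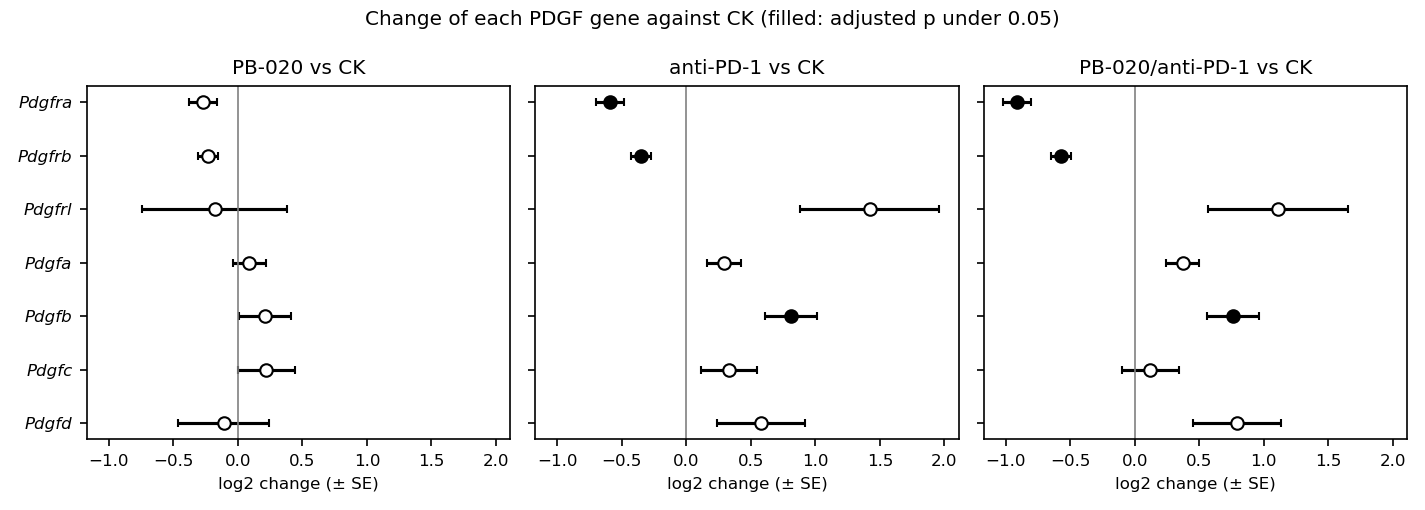
Log2 change of each PDGF gene against CK with its SE (horizontal axes) for PB-020, anti-PD-1 and their combination, from the edgeR model of all 12 tumors. Filled points have an adjusted p under 0.05. Pdgfra and Pdgfrb are filled on the left and Pdgfb on the right with anti-PD-1 and with the combination, and no point is filled for PB-020.

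The marker lists of cell types known to carry these receptors moved in part. Which cells, host or MC38, held the receptor transcripts here cannot be told from bulk reads. In bulk tumors, fewer cells of a type and less RNA per cell cannot be told apart. Of 14 fibroblast markers, the combination lowered 4 against CK (Mmp2, Col5a1, Col3a1 and Dcn) and raised 1 (Postn), where 9.60% of all genes were lowered and 8.35% raised. For 9 of the 14 markers the change was above 0, and the median was 0.39 (median of all genes −0.003). Their summed level was 4467 to 5691 TPM in CK tumors, 4103 to 4219.8 TPM with PB-020, 2321 to 4371 TPM with anti-PD-1 and 2415 to 3187 TPM with both. The sum was led by Col3a1, which went from 2433 TPM in CK to 778 TPM in the combination group, while Col1a1 (168 and 264 TPM) and Col1a2 (313 and 369 TPM) were not called. Of 10 pericyte markers, the combination lowered 4 (Abcc9, Vtn, Kcnj8 and Mcam) and raised 0. In the combination group the median change of the 10 was −0.49, and their summed level was 118 to 144 TPM in CK and 105 to 116 TPM in combination tumors. Anti-PD-1 alone lowered 3 of them (Kcnj8, Abcc9 and Vtn) and raised 1 (Cspg4), where 4.08% of all genes were lowered and 4.18% raised. Without CK tumor 2 or 3 only Kcnj8 was called with anti-PD-1, where 137 and 637 of all genes were called. With PB-020 alone 0 of them and 0% of all genes were called, with 0 of the 10 changes above 0 and a median of −0.31. Kcnj8, a potassium channel subunit of pericytes, was at 5.39 TPM in CK and 2.63 TPM in the combination group, while Rgs5 was at 22.0 and 24.5 TPM and Cspg4 at 37.4 and 40.3 TPM. In the combination group the calls of Mmp2, Col5a1, Col3a1, Dcn, Abcc9 and Vtn stayed with each tumor left out. That of Postn stayed only without an anti-PD-1 tumor, that of Kcnj8 was lost without CK tumor 3 or combination tumor 1 or 2, and that of Mcam without CK tumor 2 or 3 or any combination tumor. No fibroblast or pericyte marker was at 0 in any group as a whole. The part of these markers in the lower Pdgfra and Pdgfrb levels was not tested.

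Markers of other cell types that could hold PDGF transcripts were counted against the 17.9% of all genes that the combination called. Of 11 endothelial markers, Cldn5, a tight junction protein, was lowered with anti-PD-1 and with the combination, from 6.92 to 3.30 TPM in the latter, and summed levels overlapped at 124 to 193 TPM in CK and 112 to 133 TPM in combination tumors. Of 6 smooth muscle markers the combination raised Tagln, and of 9 macrophage markers it raised Msr1. Of 4 tested platelet and megakaryocyte markers (of 8) it lowered Itga2b, with summed levels of 142 to 269 TPM in CK and 119 to 168 TPM in combination tumors. All 9 T cell markers were raised in the combination group, from 22.6 to 30.7 TPM summed in CK to 58.0 to 89.1 TPM, and all 5 erythroid markers tested were lowered, from 1218 to 2761 TPM to 224 to 305 TPM. Of 4 tested skin markers (of 6) Krt14 was raised, from a mean of 167 TPM in CK to 316 TPM, and the other 3 were not called. Of the nerve sheath markers Cdh19 was lowered. No skeletal muscle or adipocyte marker was called. With a tumor left out, Tagln and Itga2b were each called in only 3 of 12 fits, Cldn5 was lost without CK tumor 2 or combination tumor 1, Msr1 without CK tumor 2 or combination tumor 1 or 2, and Cdh19 without CK tumor 1 or 2 or any combination tumor. T cell calls fell to 5 of 9 without CK tumor 2 and to 6 without CK tumor 1 or combination tumor 2. Erythroid calls fell to 2 without combination tumor 1, while Krt14 stayed in all 12. Those fits without a tumor called 864, 1806, 1160 and 1085 of all genes in that order, against 2434 with all tumors. The part of any of these lists in the PDGF values was not tested.

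**Figure D3:**
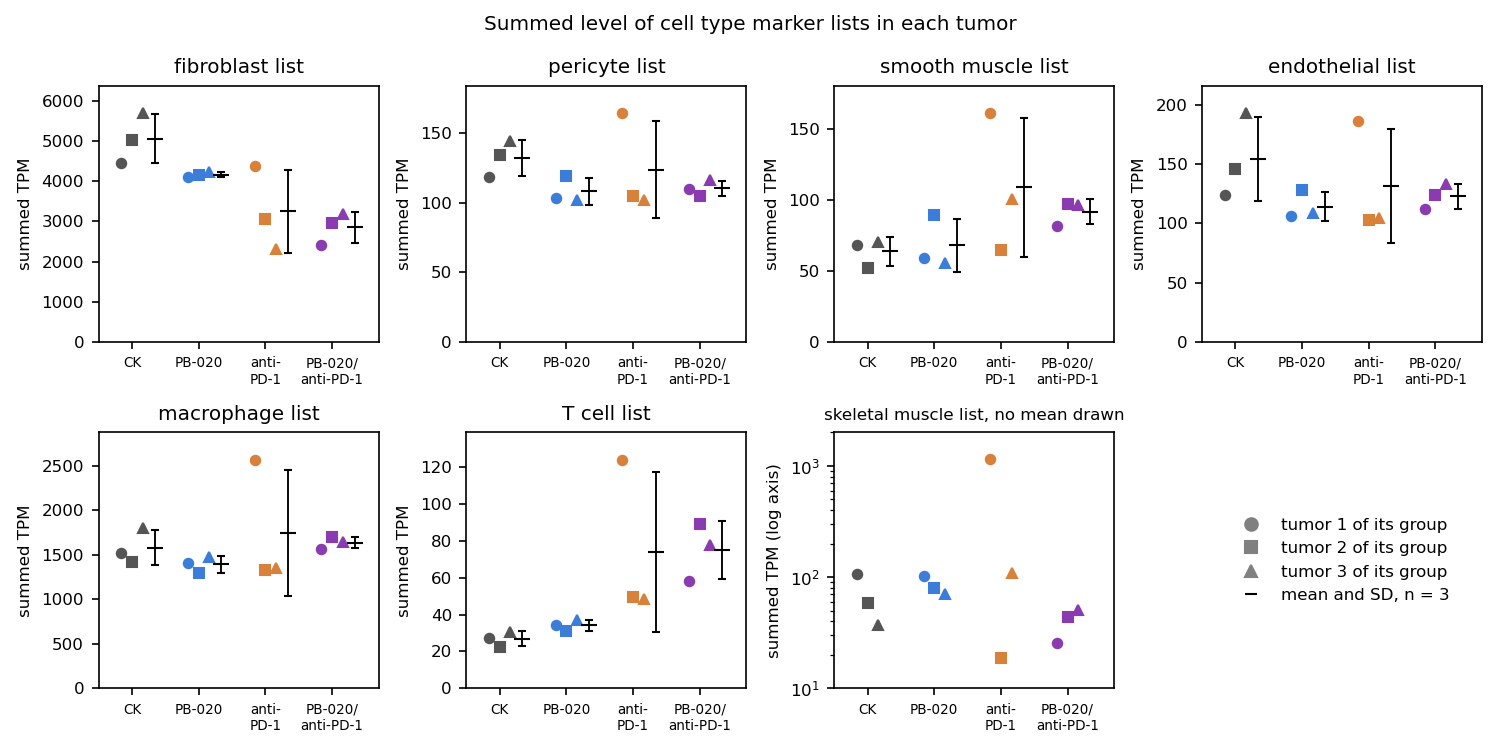
Summed TPM of 7 lists of cell type markers (vertical axes) in each of the 12 tumors, by group. Symbols are tumors and black bars are means with SD over 3 tumors, and the skeletal muscle panel has a log axis with no mean. The fibroblast sum is lower and the T cell sum higher in every combination tumor than in every CK tumor, and anti-PD-1 tumor 1 has the highest skeletal muscle sum at 1152 TPM.

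Of the 4 ligand genes, Pdgfb was the 1 raised against CK. Pdgfb, which encodes the chain that binds both receptors, stood at 15.9, 16.4 and 17.5 TPM in CK and at 15, 24.3 and 15.9 TPM in PB-020 tumors. Tumors given anti-PD-1 had 38.4, 21.5 and 28.9 TPM, and combination tumors 27.3, 22.9 and 29.3 TPM. All 6 tumors given the antibody were above all 3 CK tumors, and PB-020 tumor 2 lay among them. Against CK the log2 change of Pdgfb was 0.81 (SE 0.20, adjusted p = 0.032) with anti-PD-1 and 0.76 (SE 0.20, adjusted p = 0.024) with the combination. With PB-020 it was 0.21 (SE 0.20, adjusted p = 0.93), and against anti-PD-1 alone the combination was at −0.05 (SE 0.19, adjusted p = 0.97).

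Each of the 2 Pdgfb calls against CK was lost in 5 of the 12 fits with a tumor left out. With anti-PD-1 these were CK tumors 1, 2 and 3 (adjusted p = 0.073, 0.12 and 0.068) and anti-PD-1 tumors 1 and 3 (0.099 and 0.11), and the call was also lost in a fit of these groups alone (0.064). With the combination they were CK tumors 1, 2 and 3 (0.057, 0.091 and 0.053) and combination tumors 1 and 3 (0.074 and 0.06). Averaged over both PB-020 states, anti-PD-1 raised Pdgfb by 0.68 (SE 0.14, adjusted p = 0.0063), and this call stayed in all 12 such fits, at 0.60 to 0.81.

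Pdgfa, the most abundant ligand gene, encodes a chain specific to the α receptor. It stood at 64.4, 70.6 and 50.8 TPM in CK tumors and 61.5, 60.4 and 67.2 TPM in PB-020 tumors. With anti-PD-1 the tumors had 88.8, 62.3 and 79.2 TPM, and combination tumors 84.2, 70.0 and 79.3 TPM. Both antibody groups overlapped CK, with anti-PD-1 tumor 2 inside the CK range, while the combination tumors lay above every PB-020 tumor. The log2 change was 0.37 (SE 0.13, adjusted p = 0.06) in the combination group and 0.29 (SE 0.13, adjusted p = 0.16) with anti-PD-1, neither past the threshold, although DESeq2 called the combination (adjusted p = 0.04). Without anti-PD-1 tumor 2 the change with anti-PD-1 was called (0.41, adjusted p = 0.035), and without CK tumor 3 it was at 0.16. Averaged over both PB-020 states the antibody gave 0.29 (SE 0.09, adjusted p = 0.034). This call was lost in 8 of 12 fits with a tumor left out, with adjusted p up to 0.083, and was kept without CK tumor 1 or 2, anti-PD-1 tumor 2 or combination tumor 2.

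Pdgfd, the rarest ligand gene, encodes a β receptor ligand that proteases activate. It stood at 1.28, 1.58 and 2.23 TPM in CK tumors and 1.57, 1.31 and 1.51 TPM in PB-020 tumors. Tumors given anti-PD-1 had 5.07, 1.69 and 1.94 TPM, and combination tumors 3.02, 3.16 and 2.68 TPM. The combination tumors were above every CK and PB-020 tumor, and the anti-PD-1 group was spread by its tumor 1. The log2 change of Pdgfd was 0.79 (SE 0.34, adjusted p = 0.12) in the combination group and 0.58 (SE 0.34, adjusted p = 0.29) with anti-PD-1. On average the antibody gave 0.74 (SE 0.24, adjusted p = 0.039), lost in 9 of 12 fits with a tumor left out (adjusted p up to 0.092) and kept without CK tumor 3 or anti-PD-1 tumor 2 or 3. Without anti-PD-1 tumor 1 it was at 0.43 (adjusted p = 0.071), and the change with anti-PD-1 alone was at −0.04.

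Pdgfc, an α receptor ligand that also needs cleavage, was the member called in no comparison. It stood at 6.82, 6.80 and 6.67 TPM in CK tumors and 6.98, 10.1 and 7.0 TPM in PB-020 tumors. The anti-PD-1 tumors had 13.0, 7.21 and 7.88 TPM, and combination tumors 6.17, 7.15 and 9.22 TPM. The 3 CK tumors had a coefficient of variation of 1.20%, and the PB-020 and anti-PD-1 tumors lay above them, while the combination tumors lay on both sides. Its log2 change against CK was 0.33 (SE 0.22, adjusted p = 0.35) with anti-PD-1 and 0.12 (SE 0.22, adjusted p = 0.74) with the combination. Without anti-PD-1 tumor 1 the change with anti-PD-1 was at 0.02.

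Pdgfrl, the receptor-like gene, was the most variable member. It stood at 4.57, 2.25 and 3.84 TPM in CK tumors and 2.19, 4.10 and 2.67 TPM in PB-020 tumors. Tumors given anti-PD-1 had 20.3, 3.78 and 5.34 TPM, and combination tumors 7.11, 6.66 and 8.20 TPM. The combination tumors lay above every CK and PB-020 tumor, and anti-PD-1 tumor 1 lay far above the rest. Its log2 change was 1.42 (SE 0.54, adjusted p = 0.13) with anti-PD-1 and 1.11 (SE 0.54, adjusted p = 0.18) with the combination. With anti-PD-1 it was at 0.41 without tumor 1 of that group, and it was called by DESeq2 (adjusted p = 0.036) and without tumor 2 (1.79, adjusted p = 0.029). Without anti-PD-1 tumor 1 the combination's change was called for both Pdgfrl (1.11, adjusted p = 0.0087) and Pdgfd (0.80, adjusted p = 0.015). On average the antibody gave 1.36 (SE 0.39, adjusted p = 0.03), lost in 7 of 12 fits with a tumor left out, with adjusted p up to 0.075. Without anti-PD-1 tumor 1 it was called at 0.85 (adjusted p = 0.0089).

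Across the family, the average effect of anti-PD-1 called 6 of the 7 members, 4 raised and 2 lowered, where 24.2% of all genes were called (11.8% raised and 12.3% lowered). The calls of Pdgfra, Pdgfrb and Pdgfb stayed with each tumor left out, and those of Pdgfa, Pdgfd and Pdgfrl did not. The tumors of the groups did not overlap in TPM for 4 of 7 members with anti-PD-1 against CK and for 5 of 7 with the combination against CK, where this held for 26.5% and 40.7% of all genes. For PB-020 against CK it held for 2 of 7 (Pdgfc and Pdgfrb) and for 19.5% of all genes, and for the combination against PB-020 for 5 of 7 (Pdgfa, Pdgfd, Pdgfra, Pdgfrb and Pdgfrl) and for 28.2%. In TPM, anti-PD-1 tumor 1, with the skeletal muscle transcripts, was the highest of the 12 for all 4 ligands and Pdgfrl, while its Pdgfra and Pdgfrb levels lay within those of the other treated tumors. In expected counts of Pdgfa, combination tumor 1 was above it (981 against 974). Anti-PD-1 tumor 1 also had the highest marker sums of T cells (124 TPM), macrophages (2568 TPM), pericytes (164 TPM) and smooth muscle (161 TPM). The part of these cells' RNA in its ligand values was not tested.

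The balance of ligand to receptor transcripts rose with the antibody in each pair tested. The 4 ligands together made 87.0 ± 9.17 TPM (SD, n = 3) in CK tumors, 90.9 ± 5.51 with PB-020, 119 ± 26.3 with anti-PD-1 and 115 ± 10 with both. Pdgfb to Pdgfrb, a pair known from endothelial cells and pericytes, stood at 0.289, 0.255 and 0.260 in CK and at 0.314, 0.467 and 0.319 in PB-020 tumors. Tumors given anti-PD-1 had ratios of 0.741, 0.420 and 0.682, and combination tumors 0.716, 0.639 and 0.677. PB-020 tumor 2 was above anti-PD-1 tumor 2, and apart from that pair every tumor given the antibody was above every tumor without it. The log2 difference with against without the antibody was 1.03, a 2.05-fold ratio (exact permutation p = 0.005, adjusted 0.0063), and it was 1.16 within vehicle and 0.91 within PB-020 tumors.

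Pdgfa to Pdgfra rose from 1.91 to 3.75 (median 2.88) over the 6 tumors without the antibody to 3.25 to 7.18 (median 5.54) over the 6 with it, a log2 difference of 0.93 (exact permutation p = 0.005, adjusted 0.0063). Its mean was 2.49 ± 0.550 (SD, n = 3) in CK and 6.19 ± 0.861 in the combination tumors. Pdgfc to Pdgfra rose by 0.79 on the log2 scale (exact permutation p = 0.005, adjusted 0.0063), although Pdgfc itself was not called. Pdgfd to Pdgfrb rose by 1.18 (exact permutation p = 0.01, adjusted 0.01). The lowest tumor with the antibody was within the range of those without it for each of the 5 ratios. All 5 calls stayed with each tumor left out. A ratio rises when its denominator falls, so these values are not independent of the receptor changes above.

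**Figure D4:**
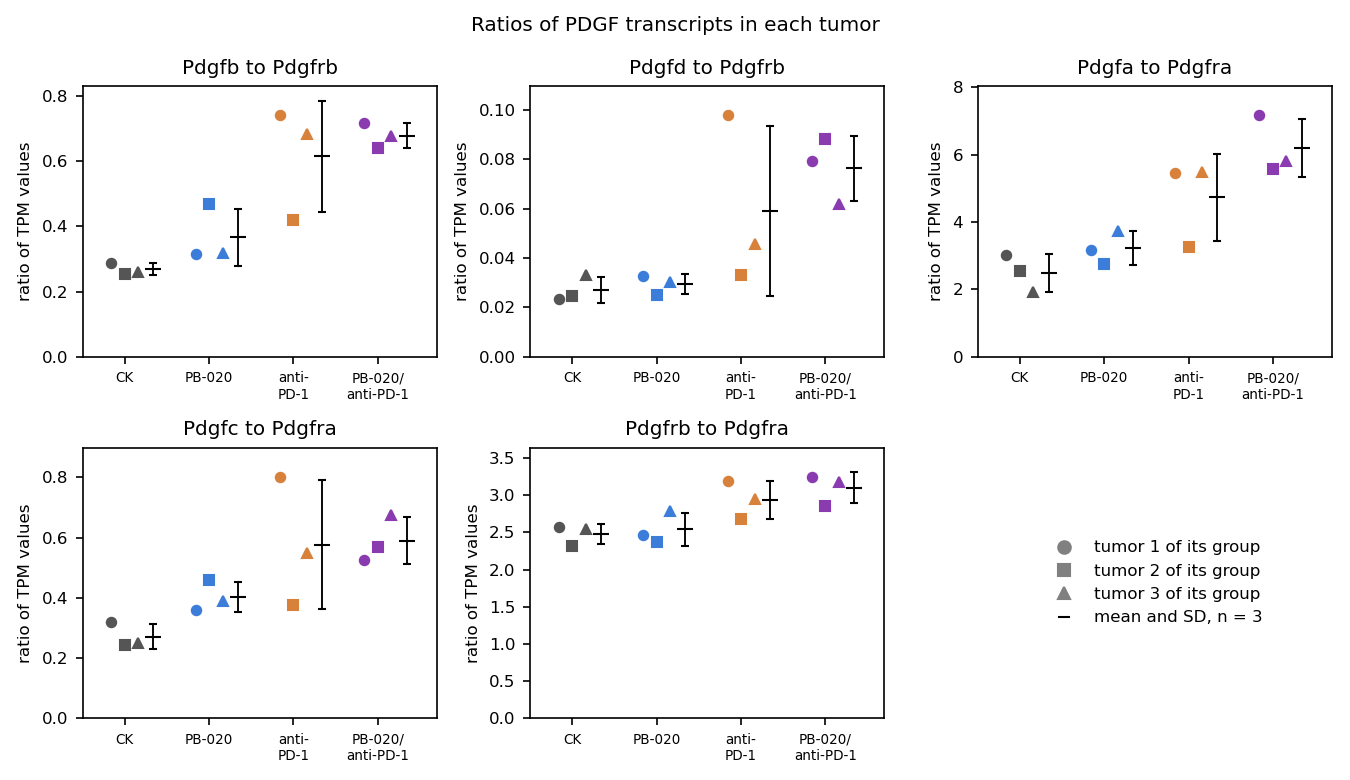
Ratio of the TPM values of 2 PDGF genes within a tumor (vertical axes, starting at 0) for 5 pairs, in each of the 12 tumors by group. Symbols are tumors and black bars are means with SD over 3 tumors. All 5 ratios are higher on average in the tumors given anti-PD-1, and Pdgfa to Pdgfra is highest in the combination tumors, at 5.58 to 7.18.

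Of 10 genes that process or bind PDGF proteins, the combination lowered 3 against CK and raised 0, where 9.60% of all genes were lowered and 8.35% raised, and the median change was −0.05. Plat, tissue plasminogen activator, which cleaves PDGF-C, went from 67.1 ± 6.26 TPM (SD, n = 3) in the CK tumors to 40.1 ± 3.35 in those given both, a log2 change of −0.66 (SE 0.09, adjusted p = 0.0015). Lrp1, an endocytic receptor that associates with the β receptor, changed by −0.54 (SE 0.10, adjusted p = 0.0044), and Sparc, a matrix protein that binds PDGF-B, by −0.52 (SE 0.10, adjusted p = 0.005). Anti-PD-1 alone lowered the same 3, Plat by −0.52, Sparc by −0.40 and Lrp1 by −0.36. Plau and St14 encode proteases that cleave PDGF-D, and they were at 0.04 (SE 0.12) and 0.75 (SE 0.33, adjusted p = 0.13) in the combination group. Furin, a convertase of PDGF-A and PDGF-B precursors, was at 0.13 (SE 0.10), and Nrp1, a co-receptor, at −0.54 (SE 0.18, adjusted p = 0.064). With each tumor left out the combination lowered 3 or 4 of the 10 and anti-PD-1 alone lowered 1 to 4. The fewest came without CK tumor 2 or anti-PD-1 tumor 3, where 137 and 238 of all genes were called.

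Of 44 genes downstream of the receptors the combination raised 4 and lowered 6 against CK, where 8.35% of all genes were raised and 9.60% lowered, and the list's median change was −0.02. Among the raised genes were Map2k1, a MAPK kinase, at 0.38 (SE 0.08), and the phosphatases Ptpn2 at 0.33 (SE 0.08) and Acp1 at 0.27 (SE 0.08). Among the lowered genes were Gab1, a docking protein, at −0.57 (SE 0.10), Pik3r2, a regulatory subunit of PI3K, at −0.40 (SE 0.09), and the kinases Mapk3 at −0.25 (SE 0.08) and Jak1 at −0.19 (SE 0.06). Plcg1, phospholipase C gamma 1, was at −0.24 (SE 0.08, adjusted p = 0.045). Anti-PD-1 alone raised 4 of the 44, among them Map2k1, Src and Ptpn2, and lowered 1, Gab1 (4.18% and 4.08% of all genes), with a median of 0.03. With a tumor left out the counts in the combination group ranged from 1 to 7 raised and from 2 to 6 lowered. The most of both came without anti-PD-1 tumor 1 (3344 of all genes called) and the fewest raised without CK tumor 2 (864).

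Of 20 transcripts that growth factors induce early, the combination raised 2 and anti-PD-1 alone 2, where 8.35% and 4.18% of all genes were raised. Hbegf, an EGF receptor ligand, changed by 0.82 (SE 0.20, adjusted p = 0.018) and Srf, the serum response factor, by 0.25 (SE 0.07, adjusted p = 0.026) in the combination group, and both were also raised with anti-PD-1 alone. None of the 20 was lowered in either comparison, and the medians of the list were 0.17 with anti-PD-1 and −0.00 with the combination. Without CK tumor 2 no gene of the list was called in either comparison. That fit called 137 of all genes with anti-PD-1 and 864 with the combination, against 1120 and 2434 with all tumors. Without combination tumor 3 none was called in the combination group (2045 of all genes). Without anti-PD-1 tumor 3 none was called with anti-PD-1 alone (238 of all genes).

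The 6 related receptor kinases gave a comparison with other receptor kinase genes. Kit, Csf1r, Flt3, Kdr, Flt1 and Flt4 include the receptors of stem cell factor, of colony-stimulating factor 1 and of VEGF. None was called against CK in any group, where 0% of all genes were called with PB-020, 8.26% with anti-PD-1 and 17.9% with the combination. With only 6 genes, a count of 0 cannot be set apart from these shares. In each group 5 of the 6 changes were below 0. The median changes of these kinases were −0.29 with PB-020, −0.23 with anti-PD-1 and −0.27 with the combination. Csf1r, next to Pdgfrb on the chromosome, was at −0.23 (SE 0.24, adjusted p = 0.54) in the combination group. Without anti-PD-1 tumor 1, Csf1r and Flt1 were called as lowered in both antibody groups. That fit called 625 of all genes with anti-PD-1 and 3344 with the combination. With PB-020 alone 0 genes of these 4 lists were called, where edgeR called 0% of all genes, so this count says nothing about the lists.

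**Figure D5:**
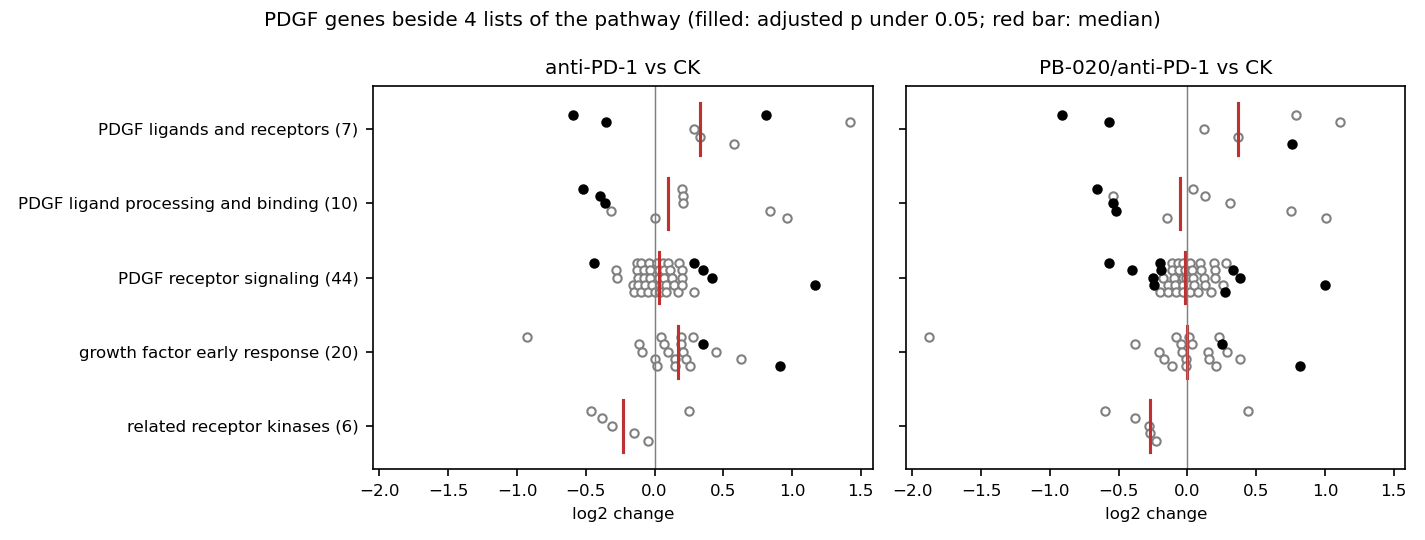
Log2 change against CK (horizontal axes) of the 7 PDGF genes and of 4 lists of their pathway (rows, with the number of genes) for anti-PD-1 and for the combination. Each circle is a gene, filled where the adjusted p is under 0.05, and red bars are medians. The medians of the signaling list lie at 0.03 and −0.02, and Pdgfra is the lowest member of the family in both panels.

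Over the 12 tumors, Pdgfra and Pdgfrb followed each other closely, with a Pearson r of 0.96 on log2 CPM (counts scaled by TMM-adjusted library size). Their r for deviations from the group means was 0.71. The points share their libraries and groups, so this is a description and carries no p. The r of a ligand with a receptor kinase ran from −0.83 for Pdgfa with Pdgfra to −0.08 for Pdgfc with Pdgfrb. For deviations from the group means it was −0.69 for Pdgfa with Pdgfra, −0.21 for Pdgfb with Pdgfra (−0.78 over all tumors), −0.03 for Pdgfb with Pdgfrb (−0.71) and 0.12 for Pdgfd with Pdgfrb (−0.55). Of all genes tested, those most like Pdgfra were Qsox1 (r = 0.98, n = 12 tumors), Dtx4, Smg6, Trib2 and Kat6b. Those most like Pdgfrb were Mecom (r = 0.98), Nxpe4, Thbs3, Nav1 and Lamc1. Pdgfb was most like Slc16a3 (r = 0.98), which encodes a lactate transporter, B4galt6, BC030867 and Rrm2. Pdgfd was most like Mmp25 (r = 0.98), Cst7, Dusp2, Icos and Gpr65, of which Icos is a T cell gene. Pdgfrl was most like Srpx2 (r = 0.98), Thbs2, Itga11, Dkk3 and Kif26b. Pdgfa was most like Phlda2 (r = 0.93), Pxdc1, Psme3, Rhou and Ngef. Pdgfc was most like Rxra (r = 0.88), Man1c1, Smoc2, Boc and Akap6, and without anti-PD-1 tumor 1 its r with Rxra was 0.70.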

How the data were processed

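RNA of 12 MC38 tumors was sequenced as read pairs of 150 bases. Reads were aligned by the authors using Bowtie2, RSEM gave gene values, and the submitters' processing notes also name HISAT and GRCm38.p6. The annotation and tool versions are not given in the sources used here. Deposited RSEM expected counts carry no scaling (91.0% of values are exactly whole, with no tolerance). FPKM and TPM, also deposited, were scaled by the authors for gene length and library total. The authors' group means were not used. Groups and tumor numbers come from the labels, doses and days from the study's methods.

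Expected counts were rounded, scaled by TMM, filtered with filterByExpr (minimum count 10) and tested with edgeR 4.0.16 (R 4.3.3, quasi-likelihood, robust, 2-sided) in 1 model of 4 group means over all 12 libraries. Adjusted p-values (Benjamini-Hochberg) cover all 13563 genes tested, and a gene is called, raised or lowered, at an adjusted p under 0.05. Average effects set the 6 tumors with a treatment against the 6 without it. SDs are over 3 tumors, and SEs come from the model. Ratios of TPM values were tested by exact permutation within PB-020 status, and p-values were adjusted over 5 ratios. Likeness is Pearson's r on log2 CPM (prior count 2). At 16545394 to 17217035 counts per library, Pdgfd and Pdgfrl had the fewest counts of the members and the least precision. SEs do not cover errors of alignment.

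Named were all 7 members, of each pathway list the called genes (at most 5 per direction, by p), of marker lists the first 3 and called genes needed to describe them, and per member the 5 genes of highest r. Plau, St14, Furin, Nrp1, Csf1r, Plcg1, Cdh1, Flt1 and the other kinases of that list were added for their roles or after their values were seen. Some genes that the rule names are not reported here. The members and lists were chosen with earlier results of these data known. On simulated counts for the combination against CK (13481 genes), edgeR called 35 of 67 genes changed 1.5-fold, 47 of 67 changed 2-fold, 60 of 66 changed 3-fold and 3 of 13281 unchanged.

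The alternatives were DESeq2 1.42.0, limma 3.58.1 on log2(FPKM + 1) and log2(FPKM + 0.1), library-size scaling, no filter and a strict filter (1 CPM), fitting 2 groups alone, replicate numbers as a block, and leaving out each tumor in turn. Sequences and positions are from RefSeq tables of GRCm38.p6, and the strands of the genes and the overlapping genes are from GENCODE.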

Additional observations from a re-analysis of the deposited data

How the results depend on the processing

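Of 1099 log2 changes of the 7 members recomputed under alternatives, 970 kept their direction and side of the threshold, 58 lost a call, 19 gained one and 52 changed sign, and the cause was not tested. All 5 ratios kept their calls. With only the groups compared, the members called were 0 for anti-PD-1 against CK, 6 for the combination against CK and 5 for the combination against PB-020, and the genes called were 3, 2988 and 1535 where the model of all tumors gave 1120, 2434 and 455. Limma with either pseudocount called 1 member for the combination against PB-020 (192 genes with 0.1 and 149 with 1, and 1085 with DESeq2). DESeq2 called 1 member and 40 genes for the average effect of PB-020, against 0. Fits with a tumor left out tested 13680 to 13762 genes. For anti-PD-1 against CK they called 0 to 5 members and 137 to 1905 of all genes. The members were 0 without CK tumor 2 (137 genes), 1 without CK tumor 3 (637) or anti-PD-1 tumor 3 (238), and 5 without anti-PD-1 tumor 2 (1905). For the combination against CK 2 to 6 members and 864 to 3344 genes were called, the most of both without anti-PD-1 tumor 1. For the combination against PB-020 it was 0 to 4 members and 0 to 1269 genes. The members were 0 without PB-020 tumor 1 or 3 (1 and 11 genes) or combination tumor 1 or 2 (0 and 2). They were 1 without combination tumor 3 (105) and 4 without anti-PD-1 tumor 1 (1269). For the average effect of anti-PD-1, 3 to 6 members and 2086 to 3690 genes were called, with 3 members without PB-020 tumor 1 or 3 or combination tumor 1 or 3. Member counts thus moved with the number of all genes called.

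The changes that turned sign were all among those not called in the model of all 12 tumors. For Pdgfa the interaction was 0.00 with DESeq2 and 0.01 with library-size scaling and with limma, against −0.01. Pdgfrl was at 0.04 for the combination against anti-PD-1 (limma, pseudocount 0.1), and its interaction at 0.21 and 0.11 (limma, 0.1 and 1). Pdgfc was at −0.01 for PB-020 on average with library-size scaling. With each tumor left out, the changes for PB-020 against CK ran from −0.05 to 0.17 for Pdgfa, −0.05 to 0.32 for Pdgfb, −0.23 to 0.10 for Pdgfd and −0.46 to 0.06 for Pdgfrl. Against CK, Pdgfd with anti-PD-1 ran from −0.04 to 0.84 and Pdgfc with the combination from −0.03 to 0.25. For the combination against anti-PD-1 the ranges were −0.04 to 0.16 (Pdgfa), −0.21 to 0.11 (Pdgfb), −0.37 to 0.10 (Pdgfc), −0.04 to 0.83 (Pdgfd) and −0.67 to 0.70 (Pdgfrl), and for the combination against PB-020 −0.25 to 0.06 (Pdgfc). Interactions ran from −0.12 to 0.13 (Pdgfa), −0.42 to 0.00 (Pdgfb), −0.10 to 0.10 (Pdgfra), −0.05 to 0.08 (Pdgfrb) and −0.48 to 0.88 (Pdgfrl). The average effect of anti-PD-1 on Pdgfc ran from −0.04 to 0.20, and that of PB-020 from −0.05 to 0.16 (Pdgfb), −0.08 to 0.16 (Pdgfc), −0.08 to 0.36 (Pdgfd) and −0.43 to 0.26 (Pdgfrl).

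Tumors of the same number showed no shared variation. Their deviations correlated at −0.21 to 0.29 (2 of 18 pairs over 0.1), those of different numbers at −0.22 to 0.36, and 3 of 12 tumors correlated best with their own number. These values cannot show whether tumors of the same number were handled together, which the labels do not say. With the replicate block 2 members (Pdgfra and Pdgfrb) were called for anti-PD-1 against CK (870 genes), for the combination against CK (2010 genes) and for the combination against PB-020 (320 genes), and 4 for the average effect of anti-PD-1 (2711 genes). The counts of Pdgfd (33 to 113) and Pdgfrl (29 to 252) limit their precision.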
